A study of Mus musculus with 26 samples.

Results

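3 clusters of liver transcripts, of 31469 clusters in the deposited tables, are described here: uc008xyp.2, uc008qvw.2 and uc009qaq.1. A cluster is the set of transcript rows that share a cluster number, and each is named by its most counted transcript. They were picked from earlier readings of the same tables because total RNA of ob/ob liver held far more of them than total RNA of wild-type liver (uc008xyp.2 and uc008qvw.2) or of high-fat diet liver (uc008xyp.2 and uc009qaq.1). Their total RNA levels therefore serve as a description, without a test. The tables identify transcripts by identifier only, so the genes behind them, their functions, positions and sequences were not analysed here, and the liver label was not checked against marker genes.

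Leptin is a hormone of fat tissue that restrains food intake. Mice without it overeat, become obese and store fat in the liver, and a high-fat diet makes normal mice obese by another route. hnRNPK is an abundant protein that binds RNA, moves between nucleus and cytoplasm, and takes part in splicing, export, stability and translation of messenger RNA. Precipitating it from a liver extract recovers RNA held by the protein together with RNA that sticks to the beads, which control IgG beads show.

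Livers came from 3 mouse groups: the leptin-deficient strain B6.V-Lepob/J fed normal diet (ob/ob), C57BL/6J fed normal diet (wild type) and C57BL/6J fed high-fat diet. The labels used here give no age, sex or length of diet. Each mouse group had total RNA, hnRNPK immunoprecipitates (IP) from a cytoplasmic extract and IP from a nuclear extract, with 2 replicate numbers each. The 2 total RNA libraries of a replicate number were taken as one RNA and summed to 1 unit, which the labels do not state, and this gave 18 units with 2 per group. The levels of a member in such a pair of libraries differed by 1.01 to 1.56 times. There was 1 IgG library per compartment, from mixed mice; its title names IgG, while its molecule label reads hnRNPK-bound RNA, and the title was followed. Libraries held 25597307 to 41731910 counts in total RNA, 8834063 to 12068891 in cytoplasmic IP, 5336060 to 10581089 in nuclear IP, 338469 in cytoplasmic IgG and 3116786 in nuclear IgG. The labels do not call the replicates separate animals. The p-values then reflect the spread among these samples alone, and that spread may be technical. Libraries were made from whole tissue, so more RNA per cell and more cells of a type that holds the RNA cannot be told apart.

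None of the 3 clusters was silent outside ob/ob liver. All were counted in every total RNA library of wild type and high-fat diet, at levels under 1 CPM (counts scaled to library size and, by TMM, to library composition), and ob/ob liver had 3.67 to 42.5 CPM. Between ob/ob and wild type, 3 of 3 clusters had both ob/ob units above both wild-type units, as had 28.6% of the 15487 clusters tested. Between ob/ob and high-fat diet it was again 3 of 3, beside 31.9% of all clusters. In edgeR, 0.684% of clusters were called higher in ob/ob than in wild type and 0.123% higher than in high-fat diet. The choice of the members used these contrasts, so nothing is read from their counts.

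Cluster uc008xyp.2 had the widest step. In total RNA it stood at 0.601 and 0.231 CPM in the wild-type units, 0.436 and 0.356 CPM in the high-fat diet units, and 26.0 and 42.5 CPM in the ob/ob units. The ob/ob units lay far above the others, and the high-fat diet units lay between the wild-type ones. Summed over units, 6098 counts in ob/ob stood against 74 in wild type, a CPM ratio of 83.8 (exact 95% binomial interval 66.7 to 107, counting error only). Against the 75 counts of high-fat diet the ratio was 88.8 (70.7 to 113). High-fat diet over wild type gave 0.944 (0.676 to 1.32), so for this cluster the level in diet-fed mice could not be told from that of controls by counting error alone.

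Cluster uc008qvw.2 was graded over the mouse groups. Its total RNA level was 0.356 and 0.0809 CPM in wild type, 0.862 and 0.838 CPM in high-fat diet, and 6.88 and 3.67 CPM in ob/ob. Both ob/ob units lay above all others, and the order of the means was wild type, high-fat diet, ob/ob. The wild-type units were far apart, with 32 counts in replicate 1 and 7 in replicate 2. The intervals that follow cover counting error only and leave out that spread. The count ratio was 23.1 (16.7 to 32.6) for ob/ob over wild type, 5.99 (5.06 to 7.14) for ob/ob over high-fat diet and 3.85 (2.70 to 5.61) for high-fat diet over wild type.

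Cluster uc009qaq.1 had close replicates in wild type and ob/ob and wider ones in high-fat diet. It had 0.501 and 0.451 CPM in wild type, 0.851 and 0.607 CPM in high-fat diet, and 6.56 and 6.71 CPM in ob/ob total RNA. The order of the means was the same, but the step from wild type to high-fat diet was small beside that to ob/ob. Intervals again cover counting error only. The count ratio was 13.96 (11.2 to 17.6) for ob/ob over wild type, 9.12 (7.64 to 10.96) for ob/ob over high-fat diet and 1.53 (1.16 to 2.03) for high-fat diet over wild type.

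**Figure D1:**
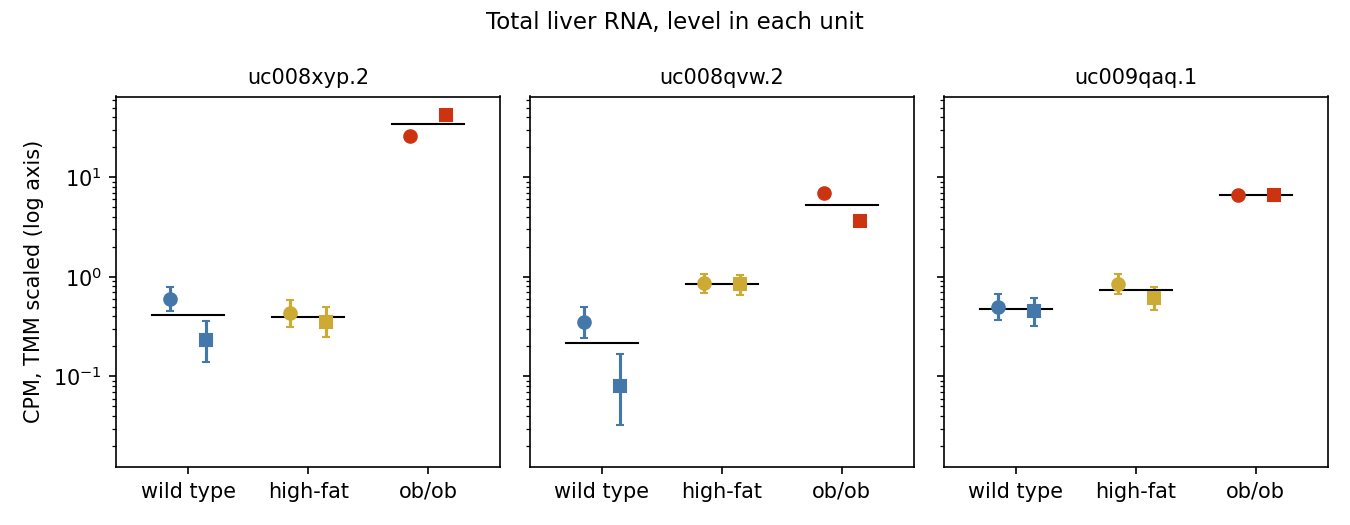
Level of each cluster in total liver RNA (CPM with TMM scaling, log axis) in the 2 units of each mouse group; circles are replicate 1, squares replicate 2, vertical bars exact 95% Poisson intervals of the counts, and horizontal lines group means. The ob/ob units lie above the others in every panel, and only for uc008xyp.2 do the high-fat diet units fall between the wild-type units.

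The ranking by which members were picked had close values at its edge, except for uc008xyp.2. Among clusters called higher in ob/ob than in wild type, at an average log2 CPM no lower than 1 and with groups that did not overlap, uc008xyp.2 was first with a log2 fold change of 6.40 and uc008qvw.2 second with 4.61, while the next had 4.59 and uc009qaq.1, the fourth, had 3.85. Against high-fat diet uc008xyp.2 led with 6.45 and uc009qaq.1 followed with 3.20, and the next had 3.02.

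Levels of different clusters are comparable per transcript length, as TPM, the authors' unit that allows for length and depth. In ob/ob total RNA the level was 61.8 ± 26.3 TPM (SD, n = 2) for uc008xyp.2, 19.6 ± 2.3 TPM for uc009qaq.1 and 7.56 ± 2.74 TPM for uc008qvw.2, and the units of the 3 clusters did not overlap. The ratio of uc009qaq.1 to uc008xyp.2 within a unit, from which library scaling cancels, was 0.416 and 0.265 in ob/ob total RNA. In wild-type total RNA it was 1.33 and 3.40 and in high-fat diet 3.20 and 2.86. By these estimates uc009qaq.1 was the more abundant of the pair in the lean and diet-fed livers and the less abundant in ob/ob. The ratio of 1.33 in wild-type replicate 1 rests on only 45 counts of uc009qaq.1 and 54 of uc008xyp.2. No interval was computed for it, so the order in that unit is uncertain.

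The IP libraries were not used to choose the members, and they asked whether the same steps appear in RNA recovered with hnRNPK. They may come from the same animals as the total RNA libraries, which the labels do not say, and the ob/ob IP units are shared by the comparisons with wild type and with high-fat diet. In cytoplasmic IP uc008xyp.2 and uc009qaq.1 rose in ob/ob against both other mouse groups, while uc008qvw.2 was close to the limit of counting and passed no test. The same 2 clusters rose in nuclear IP. For ob/ob against wild type, 2 of 3 members were called higher in cytoplasmic IP, where 5.94% of the 13516 clusters tested were, and 2 of 3 in nuclear IP, where 5.50% were. All 3 members passed the filter on low counts, which ob/ob total RNA alone sufficed to meet. For ob/ob against high-fat diet it was 2 of 3 in cytoplasmic IP, beside 1.60% of all clusters, and 2 of 3 in nuclear IP, beside 1.18%. Both ob/ob units exceeded both units of the other group for 3 of 3 members in each comparison, beside 25.5% (wild type) and 25.6% (high-fat diet) of clusters in cytoplasmic IP and 23.8% and 23.7% in nuclear IP. For uc008qvw.2 in nuclear IP against wild type this rested on 0.181 against 0.180 CPM, from 1 and 2 counts. Scaled to library size only, the order was reversed, at 0.181 against 0.189 CPM.

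In cytoplasmic IP, uc008xyp.2 had 19.9 and 19.2 CPM in the ob/ob units, from 218 and 180 counts. Wild type had 0.239 and 0 CPM, from 2 and 0 counts, and high-fat diet 0.378 and 0.323 CPM, from 3 and 2 counts. The ob/ob units were thus alike and far from the rest. The count ratio was 158 (43.3 to 1305) over wild type (edgeR adjusted p = 3.0e-05) and 55.3 (23.5 to 171) over high-fat diet, with 5.76 ± 0.55 in log2 units (SE, edgeR adjusted p = 6.7e-05). Without wild-type replicate 1 the wild type had 0 counts, and ob/ob was at least 50.3-fold higher, with a floor of 3 counts. Without wild-type replicate 2 the ratio was 82.0.

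In nuclear IP the same cluster had 47.3 and 47.4 CPM in ob/ob, 0.809 and 0.599 CPM in wild type, and 0.840 and 0.309 CPM in high-fat diet. Its log2 fold change was 6.00 ± 0.46 (SE) against wild type (edgeR adjusted p = 5.1e-06) and 6.17 ± 0.53 against high-fat diet (edgeR adjusted p = 2.7e-05). Without high-fat diet replicate 1, which held 5 of the 6 high-fat diet counts, the second value was 7.25. It was 5.81 without high-fat diet replicate 2. While the total RNA units of ob/ob differed for this cluster, 26.0 against 42.5 CPM, its nuclear IP units were nearly equal.

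For uc009qaq.1 the cytoplasmic IP held 20.5 and 20.3 CPM in ob/ob, 2.15 and 1.69 CPM in wild type and 1.89 and 1.77 CPM in high-fat diet. Here wild type and high-fat diet were alike, and ob/ob stood above them by count ratios of 10.6 (7.35 to 15.8) and 11.1 (7.47 to 17.2). The log2 fold change was 3.35 ± 0.30 (SE) against wild type (edgeR adjusted p = 3.1e-05) and 3.46 ± 0.31 against high-fat diet (edgeR adjusted p = 4.5e-05). In nuclear IP the cluster had 8.52 and 5.79 CPM in ob/ob, 1.17 and 0.599 CPM in wild type, and 1.85 and 2.17 CPM in high-fat diet. The high-fat diet units lay above the wild-type units there, a difference that was not tested.

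The nuclear step of uc009qaq.1 was 2.92 ± 0.34 on the log2 scale (SE) against wild type (edgeR adjusted p = 0.00046) and 1.83 ± 0.35 against high-fat diet (edgeR adjusted p = 0.014). With 1 replicate left out at a time the first ran from 2.56 (without wild-type replicate 2) to 3.56 (without wild-type replicate 1). The second was no longer called without ob/ob replicate 1 (edgeR adjusted p = 0.063), high-fat diet replicate 1 (0.13) or high-fat diet replicate 2 (0.064).

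Cluster uc008qvw.2 was barely present in the IP of any mouse group. Cytoplasmic IP gave 3 and 6 counts in ob/ob, 1 and 0 in wild type, and 0 and 1 in high-fat diet. The count ratio of ob/ob over wild type was 7.12 (0.987 to 312), with an edgeR adjusted p of 0.33, and over high-fat diet 6.26 (0.867 to 274), with an edgeR adjusted p of 0.45. Single libraries moved both: the first was 3.71 without wild-type replicate 2 and 4.40 without ob/ob replicate 2, and the second 2.75 without high-fat diet replicate 1 and 3.87 without ob/ob replicate 2. In nuclear IP ob/ob had 1 and 12 counts, wild type 2 and 0, and high-fat diet 0 and 0. There the ratio over wild type was 9.65 (2.18 to 88.0, edgeR adjusted p = 0.14), or 1.76 without ob/ob replicate 2, which held 12 of the 13 counts. Over high-fat diet, with its 0 counts, the edgeR adjusted p was 0.20. The lower bound of that ratio was 3.03 with a floor of 3 counts, but 0.555 without ob/ob replicate 2, 1.97 without high-fat diet replicate 2 and 1.07 without high-fat diet replicate 1. At this depth a difference between mouse groups was not detectable for this cluster in either IP.

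**Figure D2:**
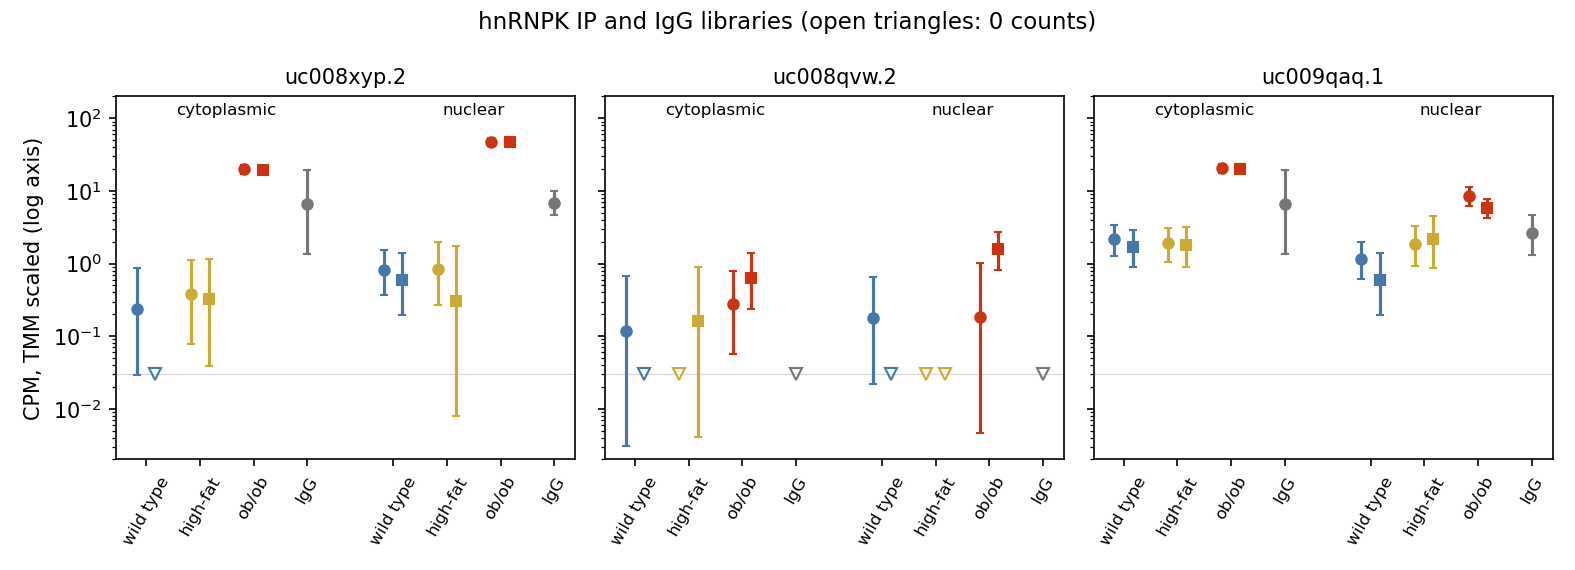
Level of each cluster in cytoplasmic and nuclear hnRNPK IP by mouse group and in the IgG library of each compartment (CPM with TMM scaling, log axis); circles are replicate 1, squares replicate 2, bars exact 95% Poisson intervals of the counts, and open triangles mark libraries with 0 counts, placed at an arbitrary height. For uc008xyp.2 and uc009qaq.1 the ob/ob IP units lie above all wild-type and high-fat diet IP units, and uc008qvw.2 has few counts in every IP library.

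The IgG libraries hold what control beads kept from mixed mice, and extracts passed over IgG beads before the hnRNPK precipitation. Cytoplasmic IgG had 3 counts of uc008xyp.2, equal to 6.59 CPM (exact 95% Poisson interval 1.36 to 19.3), and 3 of uc009qaq.1, the same level. Nuclear IgG had 29 counts of uc008xyp.2, 6.92 CPM (4.63 to 9.93), and 11 of uc009qaq.1, 2.62 CPM (1.31 to 4.69). Of uc008qvw.2 both IgG libraries had 0 counts. The upper limit of the exact 95% Poisson interval was 8.10 CPM in the cytoplasm and 0.880 CPM in the nucleus. Both ob/ob IP units lay above IgG for 3 of 3 clusters in each compartment, as they did for 57.2% of 15337 clusters in the cytoplasm and 39.9% of 14910 in the nucleus. For uc008qvw.2 any count at all would have placed IP above IgG. Its ob/ob cytoplasmic IP units, 0.274 and 0.641 CPM, lay under the IgG upper limit. So did nuclear replicate 1, at 0.181 CPM, while nuclear replicate 2 had 1.58 CPM.

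With 1 IgG library per compartment there is no test of IP against IgG. The ob/ob count ratio of nuclear IP over IgG was 6.84 (4.72 to 10.3) for uc008xyp.2 and 2.64 (1.41 to 5.48) for uc009qaq.1. In the cytoplasm the ratios were 2.97 (1.01 to 14.5) and 3.10 (1.05 to 15.1). These intervals cover counting error only and rest on TMM scaling. By library size only, ob/ob cytoplasmic IP had means of 17.1 CPM of uc008xyp.2 and 17.9 CPM of uc009qaq.1, against 8.86 CPM of each in IgG. The cytoplasmic lower limits lie so close to 1 that the scaling decides whether they exceed it. The wild-type and high-fat diet IP units of both clusters had lower CPM than IgG in both compartments. For uc008xyp.2 the intervals of these ratios over IgG all lay below 1. For uc009qaq.1 the cytoplasmic ratio was 0.292 (0.0912 to 1.495) in wild type and 0.279 (0.0856 to 1.44) in high-fat diet. Its nuclear ratio was 0.352 (0.158 to 0.826) and 0.747 (0.334 to 1.75) in the same order. Of these wild-type and high-fat diet levels of uc009qaq.1, only the wild-type nuclear one could thus be told from IgG by counting error alone, with TMM scaling. By library size only the gaps were wider. Cytoplasmic IP then had means of 1.59 CPM in wild type and 1.42 CPM in high-fat diet against 8.86 CPM in IgG. High-fat diet nuclear IP had 1.47 against 3.53 CPM. As IgG came from mixed mice in proportions that the labels do not give, the mean of the 6 IP units with equal weight is set beside it. For uc008xyp.2 that mean was 16.2 CPM in the nucleus against 6.92 in IgG, and 6.68 against 6.59 in the cytoplasm. For uc009qaq.1 it was 3.35 against 2.62 CPM in the nucleus and 8.05 against 6.59 CPM in the cytoplasm. These orders depend on the scaling. By library size only, nuclear IgG had 9.30 CPM of uc008xyp.2 and 3.53 CPM of uc009qaq.1, and cytoplasmic IgG 8.86 CPM of each. The mean of the IP units then exceeded IgG only for uc008xyp.2 in the nucleus.

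Within ob/ob liver, IP was set beside total RNA to see how far each cluster is found with hnRNPK. The members were chosen for high ob/ob total RNA, which is one side of these ratios and was not taken from either extract, so the values against total RNA are a description without a test. The 3 clusters differed in them: uc009qaq.1 had more in cytoplasmic IP than in total RNA, uc008qvw.2 had less in both IPs, and uc008xyp.2 had less in cytoplasmic IP and somewhat more in nuclear IP. In the fit over all clusters, edgeR called cytoplasmic IP above total RNA for 30.2% of 13516 clusters and below it for 33.8%. For nuclear IP these shares were 25.4% higher and 33.1% lower. The nuclear and cytoplasmic IP libraries were not used in the choice, and the difference between them was tested.

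Cluster uc009qaq.1 had 20.4 ± 0.2 CPM (SD, n = 2) in cytoplasmic IP against 6.64 ± 0.10 CPM in total RNA of ob/ob, a difference of 1.53 ± 0.25 in log2 units (SE). The median over all clusters was -0.11, and over the 959 clusters of 500 to 1000 nucleotides, the class that holds its 719-nucleotide main transcript, it was 1.15. Its nuclear level of 7.15 ± 1.93 CPM lay 0.01 ± 0.26 log2 units from total RNA. Nuclear IP was lower than cytoplasmic IP by 1.52 ± 0.27 on the log2 scale (edgeR adjusted p = 0.00032), where 25.1% of clusters were called lower. In that comparison the median of the 500 to 1000 nucleotide class was -0.94.

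Cluster uc008xyp.2, of 1260 nucleotides, had 19.6 ± 0.5 CPM (SD, n = 2) in cytoplasmic IP, 47.3 ± 0.03 CPM in nuclear IP and 34.2 ± 11.7 CPM in total RNA. The nuclear SD of 0.03 lay below the counting error of those units. Against total RNA the log2 fold change was -0.90 ± 0.31 (SE) in the cytoplasm and 0.38 ± 0.31 in the nucleus. The cytoplasmic value was -0.43 without total RNA replicate 2. Between the IPs the nuclear one was higher by 1.28 ± 0.32 (edgeR adjusted p = 0.0041), where 22.2% of clusters were called higher. Clusters of 1000 to 2000 nucleotides had medians of 0.48, 0.00 and -0.49 in these 3 comparisons.

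Cluster uc008qvw.2, of 1539 nucleotides, had 0.457 ± 0.260 CPM (SD, n = 2) in cytoplasmic IP and 0.8798 ± 0.988 CPM in nuclear IP against 5.27 ± 2.27 CPM in total RNA of ob/ob. Its log2 fold change was -3.64 ± 0.83 (SE) in the cytoplasm, where 3.13% of clusters lay lower, and -2.55 ± 0.78 in the nucleus. Only 9 and 13 counts lie behind these IP levels. Without ob/ob cytoplasmic IP replicate 2 the first value was -4.36, and without total RNA replicate 1 it was -3.06. Without nuclear IP replicate 2 the second was -4.90, without total RNA replicate 1 it was -1.94, and without nuclear IP replicate 1 it was -1.83. Nuclear and cytoplasmic IP could not be told apart, with a difference of 1.08 ± 1.03 (edgeR adjusted p = 0.42), which turned to -1.26 without nuclear replicate 2.

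**Figure D3:**
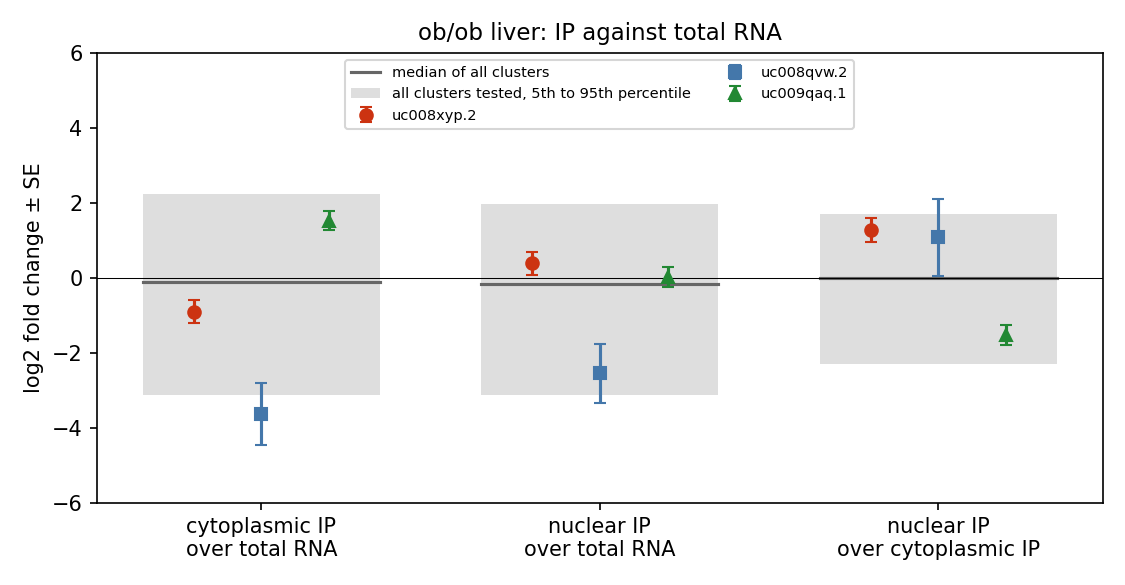
Log2 fold change ± SE of each cluster between fractions of ob/ob liver (edgeR, n = 2 units per fraction), beside the median (line) and the 5th to 95th percentile (grey) of all clusters tested. In the cytoplasm uc009qaq.1 lies at 1.53 and uc008qvw.2 at -3.64, below the grey range, and in the nuclear against cytoplasmic comparison uc008xyp.2 lies at 1.28 and uc009qaq.1 at -1.52.

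These differences reorder the clusters. In ob/ob cytoplasmic IP the ratio of uc009qaq.1 to uc008xyp.2 in TPM was 1.83 and 1.84, against 0.416 and 0.265 in total RNA and 0.327 and 0.221 in nuclear IP of the same mouse group. So uc009qaq.1, the less abundant of the pair in total RNA and nuclear IP of ob/ob, was the more abundant in cytoplasmic IP, in each unit. Cytoplasmic IgG had a ratio of 1.86 and nuclear IgG 0.691, from few counts.

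In the other mouse groups the counts were too few for precise ratios of IP over total RNA. For uc009qaq.1 the cytoplasmic ratio was 4.05 (exact 95% binomial interval 2.59 to 6.18) in wild type, 2.53 (1.59 to 3.86) in high-fat diet and 3.07 (2.74 to 3.44) in ob/ob. Its nuclear ratio was 1.94 (1.10 to 3.26), 2.69 (1.55 to 4.41) and 1.04 (0.834 to 1.29) in the same order. For uc008xyp.2 the cytoplasmic ratio was 0.296 (0.0352 to 1.11), 0.894 (0.282 to 2.18) and 0.557 (0.502 to 0.617), and the nuclear ratio 1.71 (0.894 to 3.06), 1.65 (0.587 to 3.76) and 1.35 (1.24 to 1.46). The intervals of the mouse groups overlapped for uc008xyp.2 in both compartments and for uc009qaq.1 in the cytoplasm. In the nucleus the interval of uc009qaq.1 in high-fat diet lay above that in ob/ob, a difference not tested, because the members were picked on total RNA of these groups.

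Clusters uc008xyp.2 and uc008qvw.2 have 1 transcript row each, whereas cluster uc009qaq.1 has 3, of 719 (uc009qaq.1), 860 (uc009qap.1) and 831 nucleotides (uc009qao.1). RSEM, the tool that made the counts, divides reads among such similar rows by estimation, so the split is uncertain. In ob/ob total RNA the rows uc009qaq.1 and uc009qap.1 were about equal, with 50.0% and 53.6% of the cluster count in the 719-nucleotide row of the units. In ob/ob cytoplasmic IP that row took 81.7% and 71.1%. In nuclear IP it took 100% in both ob/ob units, from 47 and 44 counts.

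The other mouse groups were counted more thinly. In wild-type total RNA the 719-nucleotide row had 26.3% and 76.1% of 45 and 39 counts, so the units of that group were far apart. Summed over units, total RNA gave it 49.5% in wild type, 48.2% in high-fat diet and 52.1% in ob/ob. The row of 860 nucleotides had 40.1%, 47.3% and 47.2% in the same order. The row of 831 nucleotides had 10.4% in wild type, 4.46% in high-fat diet and 0.766% in ob/ob, each from under 9 counts, and none of the IP counts. Both IgG libraries assigned all their counts, 3 and 11, to the 719-nucleotide row. The summed share of the shortest row thus differed little between mouse groups in total RNA, while that of the 831-nucleotide row was lower in ob/ob. The ob/ob IP units had more of the shortest row than the ob/ob total RNA units.

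**Figure D4:**
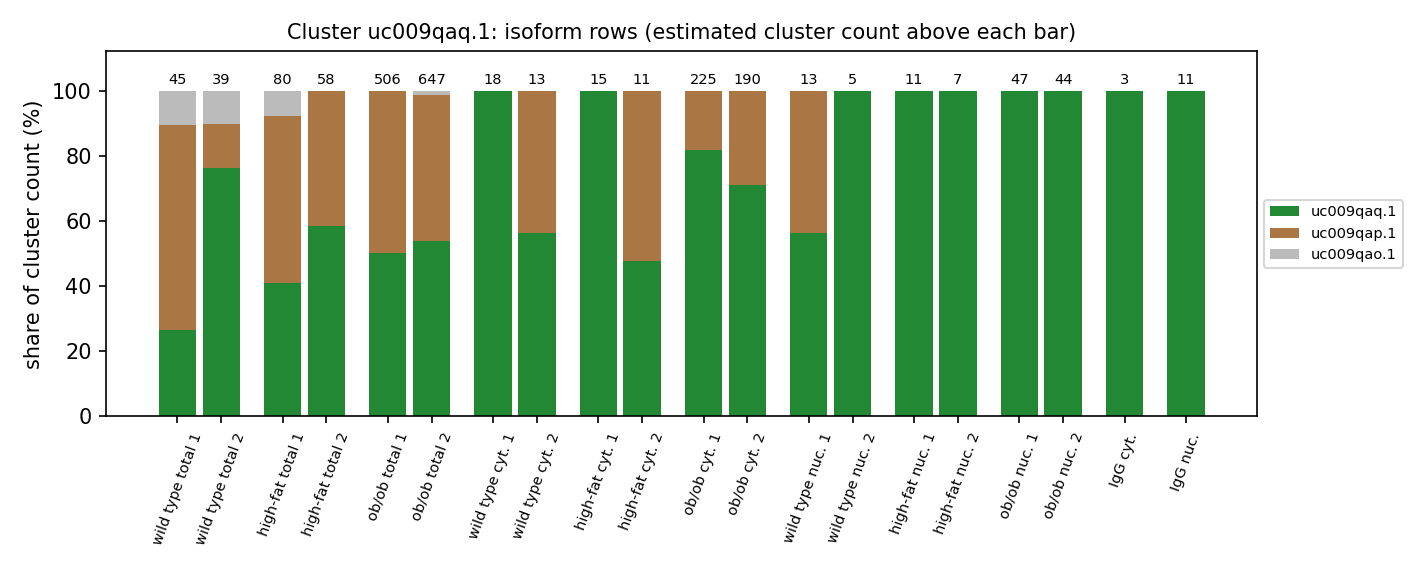
Share of the estimated count of cluster uc009qaq.1 in each of its 3 transcript rows, for every unit and IgG library, with the cluster count above each bar. Total RNA of ob/ob is split about equally between uc009qaq.1 and uc009qap.1, and ob/ob nuclear IP is assigned wholly to uc009qaq.1.

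The clusters with the numbers just before and after each member were followed to see whether neighbours in the numbering share the step. None did in total RNA. The cluster before uc008xyp.2 had means of 126, 83.0 and 121 CPM in wild type, high-fat diet and ob/ob, and the one after it had 0 counts in every library. The clusters on either side of uc008qvw.2 had 0 counts in ob/ob and high-fat diet and 1 and 15 counts in wild type. Around uc009qaq.1, the cluster before had means of 0.180, 0.147 and 0.132 CPM in ob/ob, wild type and high-fat diet, and the cluster after had 17.1, 16.0 and 14.8 CPM.

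Likeness of pattern was measured as Pearson's r of log2 CPM over the 18 units, which share libraries, mouse groups and fractions, so r is a description. Among the members r was 0.78 between uc008xyp.2 and uc009qaq.1, 0.66 between uc008xyp.2 and uc008qvw.2, and 0.38 between uc008qvw.2 and uc009qaq.1. Of 13513 other clusters, the one most like uc008qvw.2 was uc009jey.1 (r = 0.93), which had means of 3.94, 6.70 and 9.63 CPM in total RNA of wild type, high-fat diet and ob/ob. The one most like uc009qaq.1 was uc009mvv.1 (r = 0.92), a 556-nucleotide cluster with 3.72, 6.30 and 19.0 CPM there and 68.7 CPM in ob/ob cytoplasmic IP. For uc008xyp.2 the highest r was 0.91, and 1 cluster reached 0.9, as for uc009qaq.1, against 3 for uc008qvw.2.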

How the data were processed

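The authors deposited expected counts (estimated reads per transcript) and TPM in RSEM tables; RSEM 1.2.8 is named in the submitters' processing notes, as are TopHat2 2.0.10, Bowtie2 2.1.0, SAMtools, bcl2fastq and build mm10, without roles. Strandedness and annotation are not given in the sources used here. Transcript lengths are as deposited. The members and lists were chosen with earlier results of these data known. The rule for named clusters was the 3 members, the clusters numbered just before and after them, and at most 2 most like a member. Planned marker and lipid lists needed gene symbols and were not analysed here.

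Expected counts were summed per cluster and unit and rounded. Tests used edgeR 4.0.16 (R 4.3.3, limma 3.58.1): quasi-likelihood, TMM, filterByExpr, all 18 units, Benjamini-Hochberg adjustment over 13516 clusters, threshold 0.05. The SE was derived from the log2 fold change and its F statistic. Low counts have exact 95% intervals and a floor of 3 counts summed over the group. Steps were tested on simulated counts. DESeq2 1.42.0, other scalings, no filter, smaller fits, a replicate block and leaving out replicates were alternatives.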

Additional observations from a re-analysis of the deposited data

How the results depend on the processing

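Of 130 differences of members under settings that keep all replicates, 129 kept direction and call. The exception was uc009qaq.1 in ob/ob nuclear IP against total RNA, -0.19 by library size only in place of 0.01. That scaling put the median cluster at -0.53 (main -0.11) in cytoplasmic IP against total RNA, -0.37 (main -0.17) in nuclear IP against total RNA, 0.21 between the IPs and 0.49 (main 0.02) in nuclear IP of ob/ob against high-fat diet. It called 614 clusters (435 higher, 179 lower) in place of 1726 in cytoplasmic IP of ob/ob against wild type, 249 (196 and 53) in place of 482 against high-fat diet, 590 (378 and 212) in place of 1855 in nuclear IP against wild type and 1387 (1317 and 70) in place of 406 against high-fat diet. It split the calls 2447 higher and 5615 lower in cytoplasmic IP against total RNA, 2325 and 4716 in nuclear IP against total RNA, and 3274 and 2305 between the IPs. Without the filter the cytoplasmic split against wild type was 865 higher and 671 lower. Fits of the compared groups alone called fewer clusters against wild type, 261 (cytoplasmic) and 375 (nuclear), and more against high-fat diet, 715 and 496. DESeq2 called 1157 (cytoplasmic) and 960 (nuclear) against high-fat diet. It gave no adjusted p for uc008qvw.2 against high-fat diet in either IP. The causes were not tested. With the most counted isoform alone, the level of uc009qaq.1 was 0.481 to 0.518 of its value in total RNA (3.44 in place of 6.64 CPM in ob/ob), 0.747 to 0.807 for the cytoplasmic and 0.712 to 1 for the nuclear IP. By library size only, member levels were 1.15 to 1.27 times their value for total RNA, 0.648 to 0.876 for the cytoplasmic and 0.731 to 1.05 for the nuclear IP.

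Without 1 replicate at a time the counts ran from 376 to 1244 and 63 to 426 (cytoplasmic IP against wild type and high-fat diet), and from 401 to 1698 and 71 to 221 (nuclear IP). Of 84 such member values 2 reversed direction. They were uc009qaq.1 in nuclear IP against total RNA without ob/ob nuclear IP replicate 1, and uc008qvw.2 between the IPs without ob/ob nuclear IP replicate 2. Calls are not tallied here, because each such fit leaves 1 unit in a group and the comparisons with total RNA are a description. The range was 1.52 to 2.11 for uc009qaq.1 in nuclear IP against high-fat diet, -1.16 to -0.43 for uc008xyp.2 in cytoplasmic IP against total RNA, -4.90 to -1.83 for uc008qvw.2 in nuclear IP against total RNA, -0.30 to 0.29 for uc009qaq.1 there, and -1.26 to 1.80 for uc008qvw.2 between the IPs.

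With a replicate block the counts were 1790 and 553 (cytoplasmic IP against wild type and high-fat diet), 1911 and 431 (nuclear IP), 9401 and 8642 (cytoplasmic and nuclear IP against total RNA) and 7079 between the IPs, and no member's call changed. Deviations of same-numbered units from different fractions correlated at 0.26 to 0.32 in ob/ob, 0.35 to 0.41 in wild type and -0.12 to 0.09 in high-fat diet, a hint that numbers are shared across fractions in ob/ob and wild type. Those of the same fraction in different mouse groups correlated at -0.28 to 0.10. With 2 numbers per group and no label that ties them to animals, the numbers were not taken to pair samples. Depth limits uc008qvw.2 in every IP, and every member in the wild-type and high-fat diet IP.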
